A study of Mus musculus with 4 samples.

Results

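The levels of 10 genes of the blood vessel lining, Vwf, Stab1, Stab2, Kdr, Cdh5, Pecam1, Tek, Eng, Emcn and Flt1, were examined in mouse bone marrow, out of 30702 genes named in the data. They were listed by symbol as vessel and sinusoid genes. Each was measured by 1 transcript cluster (a set of probes summarised together) that carries no other gene. The study put marrow RNA on 4 Affymetrix arrays, 1 for each of 4 groups. These were control mice, mice given cisplatin (a platinum compound that links DNA strands and depletes blood-forming cells), mice treated with astragalus membranaceus (a root of Chinese medicine) and mice treated with electro-acupuncture (current passed through inserted needles). Tibias were taken after 2 weeks of treatment and the marrow was spun out of the bone, per the labels' protocols. Marrow from 6 samples was mixed, per the series' design text, which was read here as 6 per group. No group carries a named genotype. The sources used here do not give strain, sex, age or doses, nor whether the astragalus and electro-acupuncture mice also received cisplatin. Each of those groups is therefore set beside both the control and the cisplatin array.

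Marrow blood drains through sinusoids, wide thin-walled vessels whose lining cells take up waste and let new blood cells pass into the circulation. That lining is maintained by vascular endothelial growth factor (VEGF), which acts through the receptors encoded by Flt1 and Kdr, and by angiopoietins, which act through the receptor encoded by Tek. Stab2 and Cdh5 are made mainly by vessel cells. Several of the other genes are also expressed by blood cells: Vwf and Pecam1 by megakaryocytes and platelets, Stab1 by macrophages, and Tek, Eng, Emcn and Pecam1 by blood stem cells.

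Values are log2 levels, so that a difference of 1 is 2-fold. With 1 array per group there is no spread between replicates, no test was run, and neighbouring levels of a gene cannot be said to differ. Members and all other genes were counted by size alone, at 2-fold and at 1.5-fold. Genes were compared if they averaged at least 5.235, the median of all clusters and here called the floor, which 17208 genes reached. All 10 vessel genes reached it, and all 40 of their single values did too. Tek, Flt1, Stab1 and Emcn lay within 0.42 of it on average, and differences so close to the floor can be understated. In bulk marrow, more cells of a type and more RNA per cell cannot be told apart. The astragalus array had the widest spread of levels, 7.20 between its 5th and 95th percentiles, against 6.80 to 6.83 on the other arrays.

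The control array held the lowest value of the 4 for 8 of the 10 vessel genes: Vwf, Stab1, Stab2, Kdr, Flt1, Tek, Eng and Cdh5. The remaining members were lowest with cisplatin, and one of them, Pecam1, was highest in control, as were 23.2% of all genes compared. Over all genes compared, the control array was the lowest for 32.5%. After quantile normalization the same 8 genes were lowest in control, and with columns centred on their medians or a level trend removed by loess 7 were, without Flt1. For Vwf, Stab2, Kdr and Cdh5 the control lay further below the other arrays than those 3 arrays lay from each other, a pattern held by 11.1% of all genes compared. No vessel gene differed 2-fold in any of the 6 comparisons between arrays, although Vwf came to 1.96-fold between cisplatin and control.

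**Figure D1:**
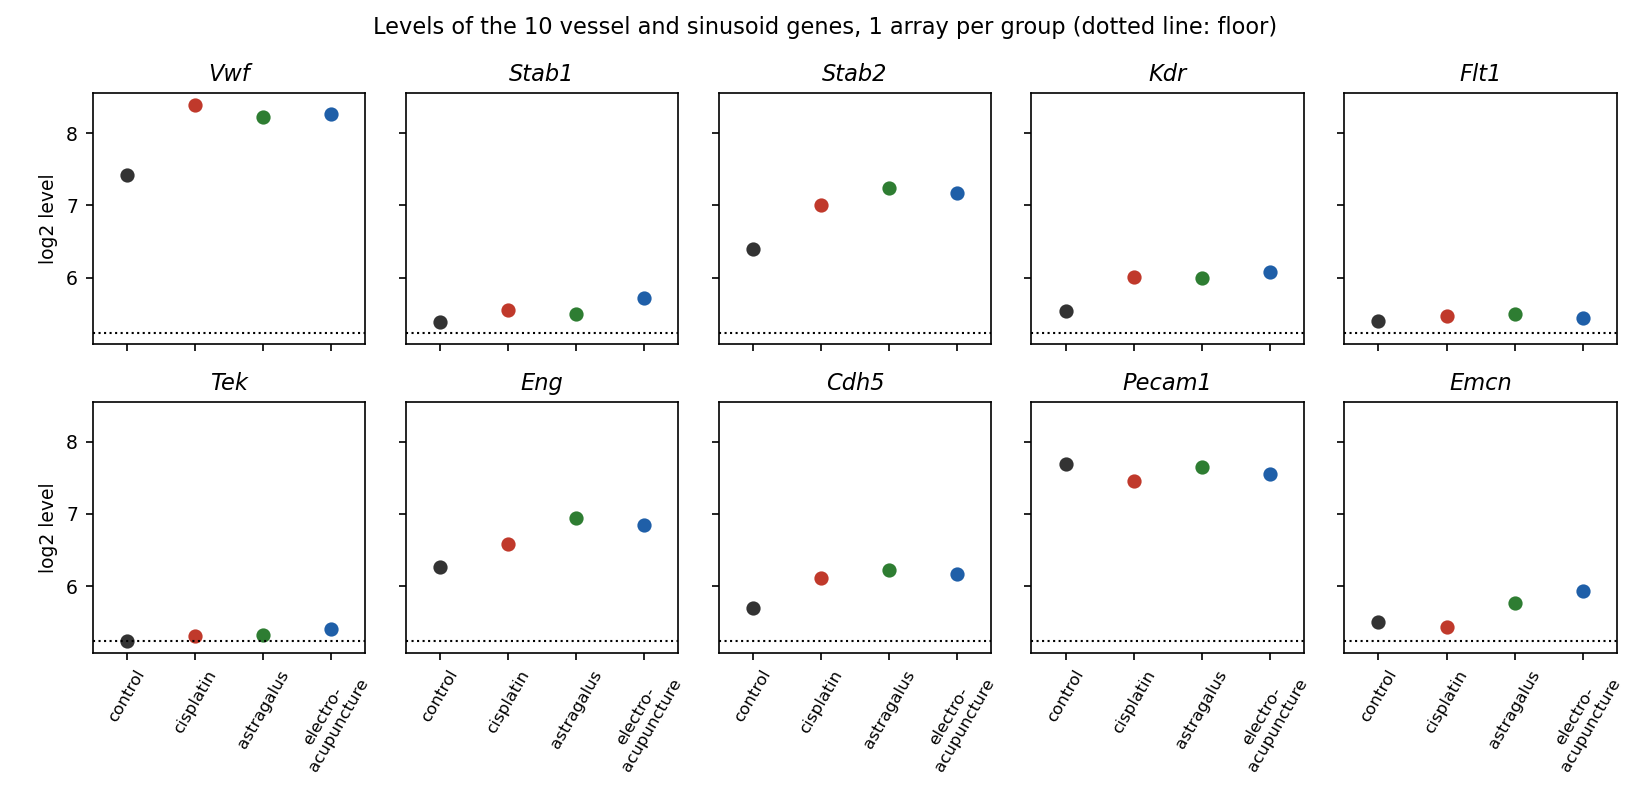
Log2 level (vertical axis) of each of the 10 vessel and sinusoid genes on the control, cisplatin, astragalus and electro-acupuncture arrays (horizontal axis); each point is 1 array and the dotted line is the floor of 5.235. The control point is the lowest in 8 panels, and Tek and Flt1 lie close to the floor on all 4 arrays.

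**Figure D2:**
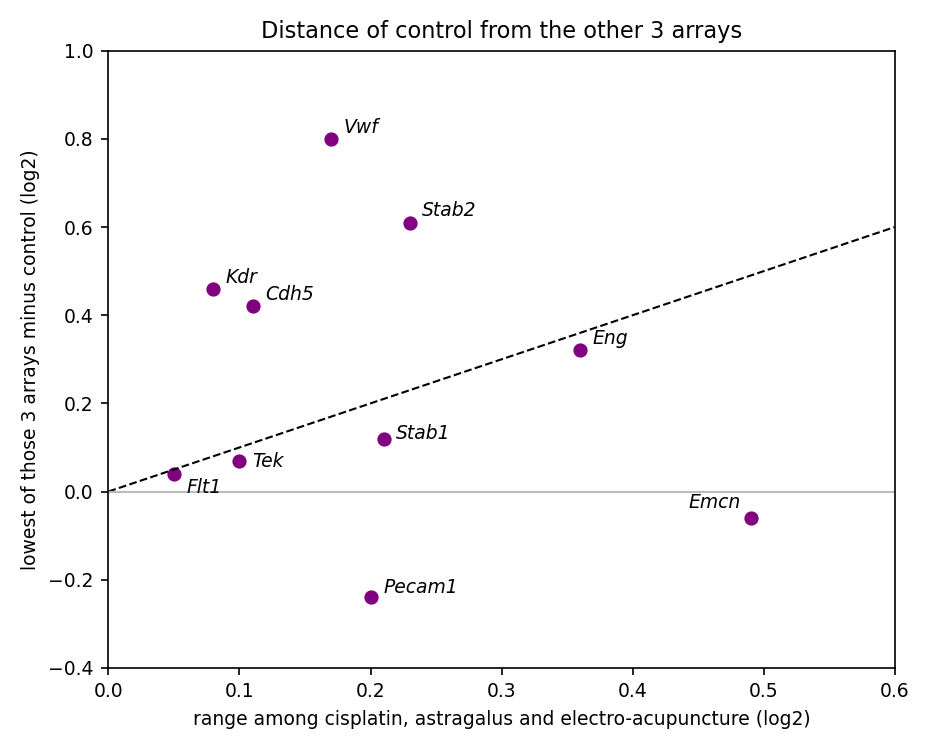
For each vessel gene, the lowest of the cisplatin, astragalus and electro-acupuncture levels minus the control level (vertical axis, log2) against the range among those 3 arrays (horizontal axis, log2); the dashed line marks equal values. Vwf, Stab2, Kdr and Cdh5 lie above the line, and Emcn and Pecam1 lie below 0.

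The start-site windows of 4 members are shown because Stab2, Kdr and Eng had the widest ranges among members with a sequence here that were lowest in control, while Emcn followed another order. They are RefSeq sequences of build GRCm38.p6, which the array annotation does not state as its own. Each runs 5′ to 3′ on the gene's strand from 250 bases before to 50 bases after the annotated start. Capitals mark GGAA or its reverse complement TTCC, the core bound by ETS factors such as those encoded by Erg and Fli1.
Stab2, chr10:87007893-87008192, - strand: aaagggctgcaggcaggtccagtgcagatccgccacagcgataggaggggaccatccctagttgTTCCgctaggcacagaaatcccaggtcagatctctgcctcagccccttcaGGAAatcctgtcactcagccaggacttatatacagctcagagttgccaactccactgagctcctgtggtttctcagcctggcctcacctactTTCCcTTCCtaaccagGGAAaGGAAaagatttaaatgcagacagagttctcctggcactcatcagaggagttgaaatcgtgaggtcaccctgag
Kdr, chr5:75978406-75978705, - strand: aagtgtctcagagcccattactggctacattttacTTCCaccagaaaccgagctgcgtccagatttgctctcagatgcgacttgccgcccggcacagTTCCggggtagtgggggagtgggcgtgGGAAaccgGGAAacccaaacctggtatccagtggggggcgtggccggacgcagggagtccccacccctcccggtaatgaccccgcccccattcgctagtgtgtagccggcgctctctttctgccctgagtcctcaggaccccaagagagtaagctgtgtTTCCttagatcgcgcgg
Eng, chr2:32646345-32646644, + strand: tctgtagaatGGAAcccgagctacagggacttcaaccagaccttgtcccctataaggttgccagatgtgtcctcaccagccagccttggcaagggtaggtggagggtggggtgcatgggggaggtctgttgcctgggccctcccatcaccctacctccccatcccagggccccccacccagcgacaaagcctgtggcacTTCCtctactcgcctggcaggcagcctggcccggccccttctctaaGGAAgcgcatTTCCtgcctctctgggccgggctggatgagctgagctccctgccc
Emcn, chr3:137340828-137341127, + strand: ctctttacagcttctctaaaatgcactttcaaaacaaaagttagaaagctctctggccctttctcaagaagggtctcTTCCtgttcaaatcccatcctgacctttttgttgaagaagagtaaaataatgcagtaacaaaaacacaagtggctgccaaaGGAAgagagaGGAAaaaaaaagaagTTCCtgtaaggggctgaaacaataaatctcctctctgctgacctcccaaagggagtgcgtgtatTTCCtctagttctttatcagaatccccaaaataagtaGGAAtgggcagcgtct
Of the 10 members, 7 had an entry in that table, and Vwf, Cdh5 and Pecam1 had none. All motifs were searched on both strands. GGAA was found in 7 of the 7 windows, with 6 matches in Stab2, 5 in Kdr, 4 in Eng and 6 in Emcn. It was held by 96.0% of all 32851 windows, with a median of 3 matches. The longer ETS form AGGAAG, which contains GGAA, was found in 5 of 7, namely Eng, Emcn, Flt1, Stab2 and Stab1, against 35.4% of all windows. The GATA motif AGATAA was found in Tek, against 11.2% of all windows, and TATAAA in Flt1, against 13.6%. In base composition the windows ran from 41.0% G and C in Emcn to 70.7% in Flt1. Flt1 held 29 CG pairs and Kdr 19, against 2 in Emcn, 3 in Tek and 4 in Stab2. These matches describe letters and were not tied to the array values.

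The scavenger receptors are the members closest to sinusoidal function. Stab2 encodes stabilin 2, which clears hyaluronan and other ligands from blood, and its level was 6.40 in control, 7.01 with cisplatin, 7.24 with astragalus and 7.17 with electro-acupuncture. All 3 of the latter arrays stood above control, by 0.61, 0.84 and 0.77, and they spanned 0.23 among themselves. Stab1, the related receptor shared with macrophages, was at 5.38 in control, 5.55 with cisplatin, 5.50 with astragalus and 5.71 with electro-acupuncture. Its largest difference was 1.26-fold, between electro-acupuncture and control, and its lowest value lay 0.14 above the floor. Both stabilins were lowest in control, and the electro-acupuncture array was the highest for Stab1 and the astragalus array for Stab2. For Stab2 that top place is not settled, since astragalus minus electro-acupuncture was 0.07 and turned to -0.04 once the level trend was removed.

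The VEGF receptors did not share a pattern of the same size. Kdr, which encodes the main signalling receptor for VEGF, was at 5.54 in control, 6.01 with cisplatin, 6.00 with astragalus and 6.08 with electro-acupuncture. The 3 arrays other than control lay within 0.08 of each other and 0.46 or more above it. Flt1, which encodes a receptor that binds VEGF tightly and signals weakly, was at 5.40, 5.47, 5.49 and 5.44 in the same order. Its whole range was 0.09, and it stayed within 0.21 of the floor on average, so no order can be read from it. Astragalus minus cisplatin was -0.01 for Kdr and 0.02 for Flt1.

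Tek encodes TIE2, the angiopoietin receptor that steadies the vessel lining. Its level was 5.24 in control, 5.31 with cisplatin, 5.33 with astragalus and 5.41 with electro-acupuncture, with the control value at the floor. Eng encodes endoglin, a co-receptor for TGF-beta and BMP ligands on vessel cells. It was at 6.27 in control, 6.59 with cisplatin, 6.95 with astragalus and 6.85 with electro-acupuncture. Its order differed from that of Kdr in that cisplatin stood between control and the other arrays. Astragalus was 1.28-fold and electro-acupuncture 1.20-fold above cisplatin for Eng, and 1.60-fold and 1.49-fold above control. The excess of astragalus over cisplatin was 0.36 for Eng and 0.33 for Emcn, and their order turned after quantile normalization, to 0.29 and 0.39, and with the level trend removed, to 0.31 and 0.39.

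The junction genes Cdh5 and Pecam1 lay on opposite sides of control and were both lowest with cisplatin among the other 3 arrays. Cdh5 encodes VE-cadherin, the adhesion protein of endothelial junctions, and was at 5.70 in control, 6.12 with cisplatin, 6.23 with astragalus and 6.17 with electro-acupuncture. The 3 arrays above control lay within 0.11 of each other. Pecam1 encodes CD31, an adhesion protein of vessel cells, platelets and many leukocytes, and was at 7.69 in control, 7.45 with cisplatin, 7.65 with astragalus and 7.56 with electro-acupuncture. It was 1.18-fold lower with cisplatin than in control, and the astragalus value came within 0.04 of control, a difference whose sign turned once columns were centred. Emcn, which encodes the sialomucin endomucin of veins and sinusoids, was at 5.50 in control, 5.44 with cisplatin, 5.77 with astragalus and 5.93 with electro-acupuncture. Control and cisplatin lay together at the low end, and electro-acupuncture was 1.40-fold above cisplatin, the largest difference of any member from cisplatin among the astragalus and electro-acupuncture arrays.

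Vwf encodes von Willebrand factor, the clotting protein stored by vessel cells and megakaryocytes. Its level was 7.42 in control, 8.39 with cisplatin, 8.22 with astragalus and 8.26 with electro-acupuncture, the widest range of the 10 members at 0.97. Cisplatin held the highest value, and the astragalus and electro-acupuncture values were 1.13-fold and 1.09-fold below it. Megakaryocyte and platelet genes differed in the same direction. Of 15 listed, 12 had a cluster of their own, and all 12 were higher with cisplatin than in control, 9 of them at least 2-fold, with a median difference of 1.29. Of all genes compared, 50.6% were higher and 2.97% were at least 2-fold different in either direction. As folds over control the medians were 2.45 with cisplatin, 3.11 with astragalus and 2.80 with electro-acupuncture. Their summed linear level was 5.08 times control with cisplatin, 6.00 times with astragalus and 6.27 times with electro-acupuncture, a sum led by Ppbp, at 16.06 in control and 18.63 with cisplatin, and Pf4, at 15.24 and 17.20. Pecam1, which megakaryocytes and platelets also express, went the other way, at 7.45 with cisplatin against 7.69 in control. The part of these cells in the Vwf and Pecam1 values was not tested.

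**Figure D3:**
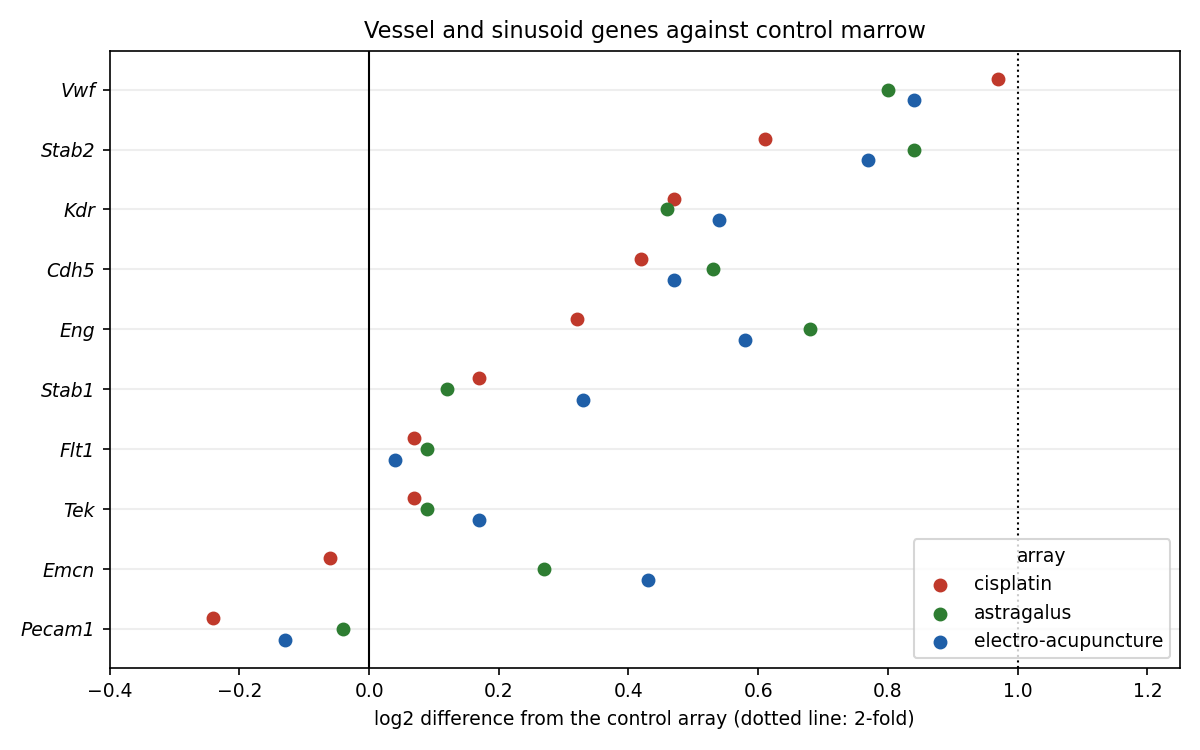
Log2 difference of the cisplatin, astragalus and electro-acupuncture arrays (colours) from the control array for each vessel gene (rows), 1 array per group; the dotted line marks 2-fold. All 3 points lie to the right of 0 for 8 genes and to the left of 0 for Pecam1, and none passes the dotted line.

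Cisplatin was set beside control to see how drug-treated marrow differs. Of the 10 vessel genes 8 were higher and 2 lower, with a median difference of 0.24, against a median of 0.01 and 50.6% higher over all genes compared. None reached 2-fold, where 2.97% of all genes did. At 1.5-fold 2 members, Vwf and Stab2, were higher and none lower, against 7.08% of all genes higher. Pecam1 and Emcn, the 2 lower members, were 1.18-fold and 1.04-fold lower. Stab2 was at the edge of the 1.5-fold count, and with the level trend removed 1 member was counted. After quantile normalization Vwf reached 2-fold, at a difference of 1.03.

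Astragalus and electro-acupuncture were each set beside cisplatin to see how those marrows differ from drug-treated marrow. With astragalus 7 vessel genes were higher and 3 lower, with a median of 0.07 against 0.06 over all genes, of which 56.8% were higher. None was 2-fold or 1.5-fold different, against 3.92% and 14.4% of all genes. Of the 3 lower genes, Kdr at -0.01 and Stab1 at -0.05 turned positive under each rescaling. These were columns centred on their medians, quantile normalization and the level trend removed. With electro-acupuncture 8 were higher and 2 lower, with a median of 0.11 against 0.02 over all genes, of which 52.5% were higher. Again none reached 2-fold or 1.5-fold, against 3.91% and 11.3%. Eng and Emcn led both comparisons, Eng by 0.36 and Emcn by 0.33 with astragalus, Emcn by 0.49 and Eng by 0.26 with electro-acupuncture. Vwf was lowest in both, at -0.17 and -0.13. Both comparisons use the same cisplatin array, so a high or low value on it enters both.

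Against control, the astragalus array was higher for 9 vessel genes and lower for Pecam1, with a median of 0.36 against 0.05 over all genes, of which 55.3% were higher. None reached 2-fold, against 8.80% of all genes. At 1.5-fold Stab2, Vwf and Eng were higher, 3 of 10, against 14.4% of all genes higher. With columns centred on their medians, Pecam1 turned from -0.04 to 0.08. The electro-acupuncture array was likewise higher for 9 members and lower for Pecam1, with a median of 0.45 against 0.04 over all genes, of which 53.7% were higher. None reached 2-fold, against 7.26%, and 2 members, Vwf and Stab2, were at least 1.5-fold higher, against 11.2% of all genes. One of the 9, Flt1, changed sign once the level trend was removed, from 0.04 to -0.01. The 3 comparisons with control share the control array.

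Between the astragalus and electro-acupuncture arrays none of the 10 members differed by more than 0.21. Of them 5 were higher with astragalus and 5 lower, with a median of 0.01 against 0.06 over all genes, of which 57.5% were higher. The differences ran from -0.21 for Stab1 to 0.10 for Eng. None reached 2-fold or 1.5-fold, against 1.52% and 9.86% of all genes. Stab1 and Emcn were the members lower with astragalus by more than 0.1, at -0.21 and -0.16. The even split depends on scaling. With columns centred on their medians Kdr, Tek and Vwf turned positive, at 0.08, 0.08 and 0.12. With the level trend removed Pecam1 and Stab2 turned negative and Tek positive, at -0.06, -0.04 and 0.05.

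Other genes of vessel biology were listed by role, 74 in all. Of these 71 had a cluster of their own and 54 reached the floor. In cisplatin against control 35 of the 54 were higher and 18 lower, where 50.6% of all genes were higher, with a median of 0.09. At least 2-fold higher were 3 and lower 1, against 2.97% of all genes in either direction. The electro-acupuncture array was above control for 36 and below for 17, where 53.7% of all genes were above, with 5 at least 2-fold higher and none lower, against 7.26%, and a median of 0.10. For astragalus 36 were higher and 18 lower, where 55.3% of all genes were higher, with 6 at least 2-fold higher and none lower, against 8.80%, and a median of 0.08. The control array was the lowest for 28 of the 54, and for 32.5% of all genes. Against cisplatin no gene of this list was 2-fold different on either the astragalus or the electro-acupuncture array, against 3.92% and 3.91% of all genes, and the medians were -0.02 and 0.01.

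**Figure D4:**
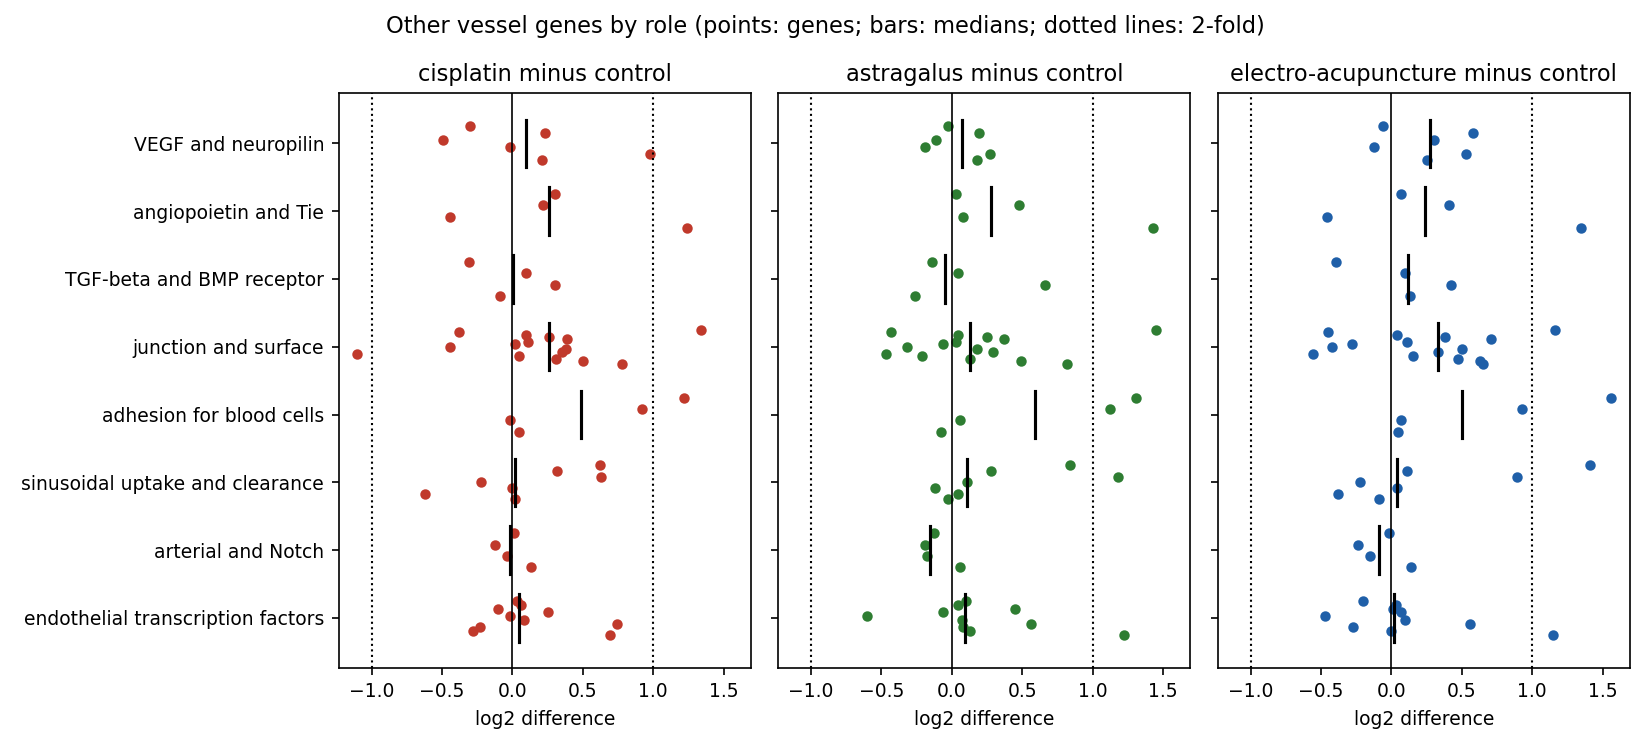
Log2 difference from control (horizontal axis) of the 54 other vessel genes above the floor, grouped by role (rows), for the cisplatin, astragalus and electro-acupuncture arrays (panels); points are genes, bars are medians and dotted lines mark 2-fold. Angpt1, Tjp1 and Vcam1 lie beyond the right dotted line in all 3 panels.

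Among ligands and receptors, Angpt1, the ligand that activates TIE2, was at 7.24 in control, 8.48 with cisplatin, 8.67 with astragalus and 8.59 with electro-acupuncture. It was at least 2-fold above control on all 3 arrays, while its receptor gene Tek spanned 0.17. Angpt1 is also made by stem cells, megakaryocytes and stromal cells. Angpt2, which opposes it at TIE2, was at 7.99, 7.55, 8.07 and 7.53 in the same order. Vegfa, the main VEGF ligand, was at 7.19, 7.17, 7.00 and 7.07. Nrp2, a VEGF co-receptor, was highest with cisplatin, at 6.44 against 5.46 in control, 5.73 with astragalus and 5.99 with electro-acupuncture. Of the other VEGF ligands Vegfb was lowest with cisplatin, at 6.90 in control, 6.41 with cisplatin, 6.79 with astragalus and 7.20 with electro-acupuncture, and Vegfc was at 6.44, 6.67, 6.63 and 7.02. Ptprb, a phosphatase that acts on TIE2, was at 5.37, 5.59, 5.85 and 5.78. Of the TGF-beta and BMP receptors that work with endoglin, Bmpr2 was at 7.57, 7.87, 8.23 and 7.99, Tgfbr2 at 6.65, 6.34, 6.51 and 6.26, and Acvrl1 between 5.18 and 5.57.

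Of 15 junction and surface genes above the floor 12 were higher with cisplatin than in control, where 50.6% of all genes were. With astragalus against cisplatin 4 of the 15 were higher and 11 lower, where 56.8% of all genes were higher. The median of the 15 was only -0.05, against 0.06 over all genes. Centring columns on their medians moved the latter to 0.17, so this count of small differences depends on scaling. Tjp1, which encodes a scaffold protein of tight junctions, was at 5.99 in control, 7.33 with cisplatin, 7.44 with astragalus and 7.15 with electro-acupuncture. Adgrf5, an adhesion receptor gene of endothelium, was at 5.51, 6.29, 6.33 and 6.16. Cd93, a surface protein of vessel cells and of early blood and B lineage cells, went the other way, at 8.93, 7.83, 8.46 and 8.37. The blood cell adhesion role held the gene with the widest range on the list. Vcam1, which holds blood cells to marrow stroma and endothelium and is also made by macrophages, was at 8.69 in control, 9.91 with cisplatin and 10.25 with electro-acupuncture, and with astragalus it was 1.31 above control. Selp, which encodes P-selectin of platelets and vessel cells, was at 5.95, 6.87, 7.07 and 6.88. Icam1 stayed between 5.48 and 5.61.

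Genes for uptake and clearance by sinusoids did not follow a single order. Mrc1, the mannose receptor gene of macrophages and sinusoidal cells, was at 7.65 in control, 8.27 with cisplatin, 8.49 with astragalus and 9.06 with electro-acupuncture. Il6st, the shared signalling chain of interleukin 6 family receptors, was at 7.67, 8.30, 8.85 and 8.56. Cd36, a fatty acid and thrombospondin receptor gene, was at 10.17, 9.55, 10.21 and 9.79. Transcription factor genes of endothelium, most of which blood cells share, had 10 of 12 above the floor. Epas1, a hypoxia-inducible factor, was at 6.03, 6.72, 7.25 and 7.18, Fli1 at 10.03, 10.77, 10.59 and 10.59, and Klf2, a factor induced by flow, at 7.58, 7.56, 6.98 and 7.11. Of 10 measured arterial and Notch genes 4 were above the floor, and among them Notch1, Jag2 and Jag1 each spanned at most 0.24. Dll4, Efnb2, Sox17 and Gja4 of arteries, Plvap of fenestrated vessels, and Cldn5 and Nos3 of endothelium in general were below it. Their levels are not read further here.

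Markers of other marrow cells that could hold the same transcripts differed between the arrays as well. Of 15 macrophage genes 13 were above the floor, with C1qa and Marco below it. Summed levels here take in every gene of a list with a cluster of its own, also those below the floor. That of the macrophage genes was 1.30 times control with cisplatin, 1.26 times with astragalus and 1.76 times with electro-acupuncture. Hmox1, at 8.05 in control and 9.19 with cisplatin, added the most to the excess with cisplatin. As folds, the medians of the 13 over control were 1.13, 1.09 and 1.31 in the same order. In electro-acupuncture against control 12 of the 13 were higher, where 53.7% of all genes were. Cd68 was at 9.08 with electro-acupuncture against 7.86 in control, Hmox1 at 9.76 against 8.05, and C1qb at 6.25 against 5.13. Stab1, which macrophages share, was highest on that array too, as were the members Kdr, Tek and Emcn. Stem and progenitor genes had 7 of 12 above the floor, with Mecom, Hlf, Procr and Flt3 below it, and summed levels of 1.72, 1.82 and 1.76 times control. The excess of that sum over control came mostly from Slamf1 and Angpt1, which other cells share. As folds, the medians of the 7 over control were 1.18, 1.37 and 1.30. With cisplatin Kit differed from control by 0.02, Meis1 by 0.17, Mllt3 by 0.24, Myct1 by 0.36 and Cd48 by -0.23. Myct1 was at 5.76 in control, 6.12 with cisplatin, 6.51 with astragalus and 6.80 with electro-acupuncture. Slamf1, a gene of stem cells, megakaryocytes and lymphocytes, was at 8.59 in control and between 9.99 and 10.07 elsewhere.

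Bone and fat genes had larger summed differences from control with cisplatin than the vessel genes. Osteoblast and stroma genes had 10 of 16 above the floor and a summed level of 10.61 times control with cisplatin, 4.93 times with astragalus and 3.92 times with electro-acupuncture. As folds, the medians of the 10 over control were smaller, at 3.49, 2.26 and 2.46. The osteoblast genes Bglap and Bglap2, which led the sum with cisplatin, and the matrix gene Sparc were highest on that array, Bglap2 at 8.47, 14.09, 12.23 and 10.53. Of the 10, 9 were higher with cisplatin than in control, where 50.6% of all genes were. Among other osteoblast genes, Ibsp differed from control by 0.28 and Sp7 by -0.13 with cisplatin. Col3a1, Alpl and Postn were below the floor. The stromal genes Cxcl12, at 10.91, 12.46, 12.95 and 13.28, Lepr, at 6.97, 8.13, 8.19 and 8.49, and Kitl, at 6.41, 7.13, 7.54 and 7.52, were above their cisplatin values on both other treated arrays. Fat cell genes had 7 of 10 above the floor and summed levels of 4.22, 3.45 and 1.67 times control, with medians of 1.42, 1.14 and 0.71. Scd1 led that sum and was 2.35, 2.09 and 0.44 above control. Adipoq, at 6.55, 8.01, 8.11 and 8.63, and Lpl, at 6.08, 7.50, 7.22 and 7.87, were highest with electro-acupuncture. Fabp4, at 7.74, 9.76, 9.04 and 8.66, was highest with cisplatin. Of the 7 fat cell genes, 5 were lower and 2 higher with electro-acupuncture than with cisplatin, where 52.5% of all genes were higher. The vessel genes' own summed level was 1.30 times control with cisplatin and 1.36 times with both astragalus and electro-acupuncture. Vwf, at 7.42 in control and 8.39 with cisplatin, added the most to each excess. As folds, the medians of the 10 vessel genes over control were 1.19 with cisplatin, 1.29 with astragalus and 1.37 with electro-acupuncture. Red cell genes, 11 of 12 above the floor, summed to 0.96, 1.67 and 1.15 times control. Of 12 skeletal muscle genes 5 were above the floor, and all 12 summed to between 0.96 and 0.99 times control. The part of these cell types in the vessel gene values was not tested.

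**Figure D5:**
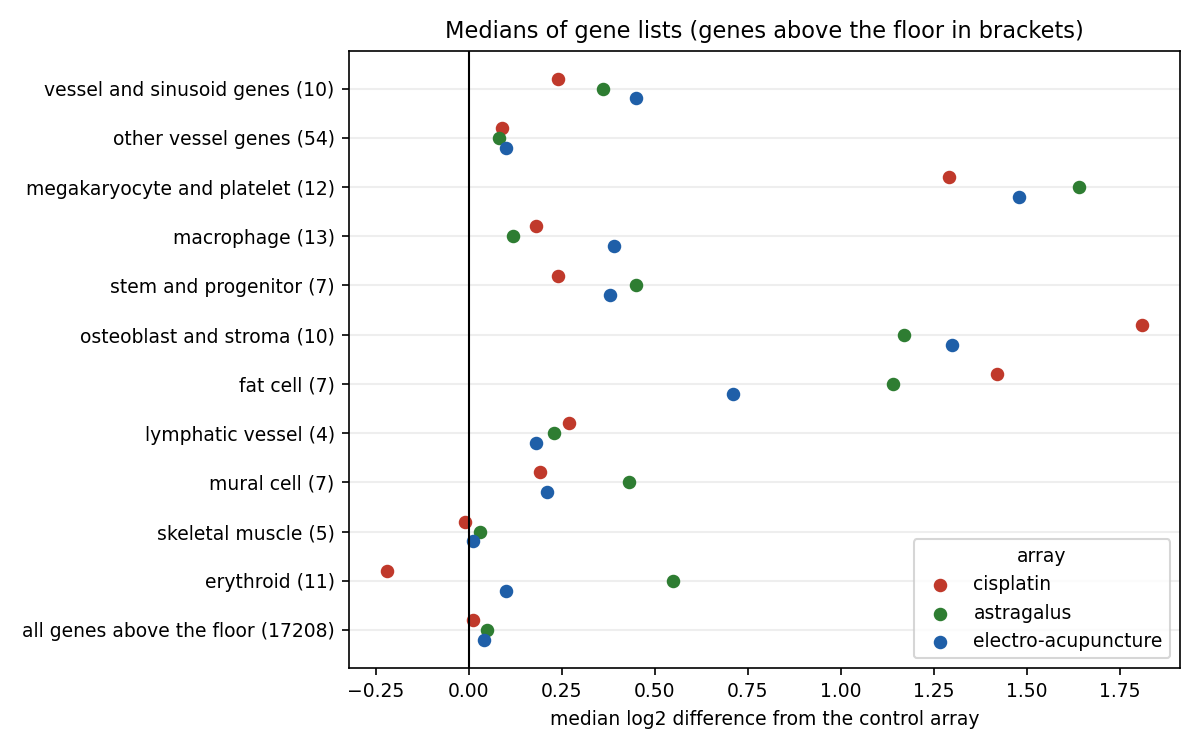
Median log2 difference from the control array (horizontal axis) of each gene list (rows, with the number of genes above the floor) for the cisplatin, astragalus and electro-acupuncture arrays (colours). The vessel and sinusoid genes have medians of 0.24, 0.36 and 0.45, between those of all genes and those of the platelet, bone and stroma lists.

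Likeness of pattern was measured as the root mean square distance between centred log2 values on the 4 arrays, among 11228 protein-coding genes above the floor. The genes nearest to Vwf were Tpm2, Pparg, Lcp2, Hsd17b10 and Jcad, at distances of 0.038 to 0.054. Tpm2, the nearest, was at 6.84 in control, 7.79 with cisplatin, 7.55 with astragalus and 7.60 with electro-acupuncture. The median profile of the 10 members was -0.27 in control, 0.01 with cisplatin, 0.09 with astragalus and 0.16 with electro-acupuncture after centring. Nearest to it were Klf9, Echs1, Ndufb8, Fastkd2 and Tomm40, at distances of 0.011 to 0.016. With 4 arrays many genes lie close to any profile, and the list is a description.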

How the data were processed

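Mouse tibial marrow RNA was measured on 4 arrays, with biotin-labelled cRNA made from 6 ug of total RNA per the labels' protocols. Deposited values were taken as log2 from their range of 2.70 to a ceiling of 19.93, and were made by the authors with Affymetrix Expression Console, per the submitters' processing notes. The sources used here give neither its version nor its summary method. Of 65956 clusters 32750 were in the platform gene table, and 31258 carried 1 gene after symbols were updated through RefSeq names (GRCm38.p6). For genes with several clusters the one with the highest mean was used. The number of arrays limits the precision.

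Differences of log2 values between arrays were counted at 2-fold and 1.5-fold, with no test and no p-value. Named genes were the 10 members, up to 3 genes per role or cell type with the widest range above the floor, some defining markers, and the 5 nearest in pattern to Vwf and to the members' median. Vegfa was named as the main VEGF ligand after its values were seen. Members and lists were chosen with earlier results of these data known. Counting was tested on simulated data. Alternatives were quantile normalization, median centring, loess (span 0.3), other floors and the mean of a gene's clusters. Python 3.11.15 was used.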

Additional observations from a re-analysis of the deposited data

How the results depend on the processing

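Of 192 recomputed summary values 187 stayed close to the value reported, meaning within 1.5 times for a count and within the robust SD of all genes' differences (0.27 to 0.37) for a median. Of 240 single-gene differences, all moved by less than that SD, by at most 0.21, and 16 changed sign, each at 0.09 or less in size as reported. After quantile normalization 1 vessel gene, Vwf, was 2-fold different between cisplatin and control, and with the level trend removed by loess 1 was 1.5-fold different. With the floor at the 75th percentile, 4 members remained, Vwf, Stab2, Eng and Pecam1. The control was then lowest for 3 of those 4, and for 38.9% of all genes left. Their median of astragalus minus control was 0.74, against 0.19 over all genes left. Between astragalus and electro-acupuncture 170 of the 9226 genes left differed 2-fold, against 262 of 17208 as reported. The control-lowest counts and the medians without Vwf and Pecam1 were chosen after seeing the data. In the comparisons with control those medians could not move, since Vwf lies above the middle members and Pecam1 below them. Scaling moved the astragalus array most: centring columns on their medians raised the median of all genes to 0.17, 0.17 and 0.22 in its comparisons with cisplatin, control and electro-acupuncture. The share higher among genes 2-fold different from cisplatin was 51.0% as deposited, 71.8% after centring, 33.7% after quantile normalization and 22.7% after loess. Against control those shares were 69.6%, 79.5%, 58.9% and 47.5%, and against electro-acupuncture 42.7%, 71.4%, 26.5% and 20.9%. No paired analysis was possible because each group has 1 array.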

Other observations

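Genes of the mural cells that wrap vessels are given above only as a list median in the plot of list medians. Of 10 listed, 7 were above the floor, and Myh11, Cspg4 and Des were below it. Rgs5, a gene of pericytes, was at 6.44 in control, 6.86 with cisplatin, 7.32 with astragalus and 7.45 with electro-acupuncture. Abcc9, which encodes a potassium channel subunit of pericytes, was at 5.73, 6.24, 6.39 and 6.48 in the same order, and Pdgfrb, the receptor gene through which endothelium recruits pericytes, at 5.52, 5.85, 6.15 and 6.00. The control value was the lowest for 4 of the 7, against 32.5% of all genes compared. In cisplatin against control none of the 7 was 1.5-fold different, where 7.08% of all genes were that much higher. At 1.5-fold 3 were higher with astragalus than in control, against 14.4% of all genes, and 2 with electro-acupuncture, against 11.2%. Rgs5 was above 2-fold with electro-acupuncture, at 1.01, where 7.26% of all genes differed 2-fold in either direction. None of the 7 was 1.5-fold lower. Of 7 genes listed for lymphatic vessels 4 were above the floor, and the defining markers Prox1 and Pdpn were below it. Reln, also on that list, was at 6.72 in control and between 5.71 and 5.91 on the other arrays. It was the only one of the 4 below control there. Mmrn1, which is also on the megakaryocyte list, was at 6.69, 7.27, 7.74 and 7.62, and Lyve1 at 5.47, 5.79, 5.75 and 5.58. Flt4 was above control on those arrays too.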
